A study of Caenorhabditis elegans with 9 samples.

Results

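Embryos of the DPY-27::GFP strain (MK14) were compared with wild-type embryos (N2) by mRNA-seq, and the comparison is described here for gene families and tissues beyond the X chromosome. The 6 libraries, 3 for each strain, were picked by strain from the 9 libraries of the series, in which 3 more came from embryos carrying an ATPase mutant of the transgene, DPY-27(EQ)::GFP. The DPY-27::GFP strain (genotype hsp::dpy-27::gfp) holds a single-copy insertion on chromosome II that drives dpy-27 fused to GFP from the hsp-16.41 promoter, so the transgene is on only after heat. Wild type had no transgene but the same treatment: parents of mixed age at 35°C for 30 min, then 2 h at room temperature before bleaching, and the embryos of all strains were a mixture of stages. Nothing in the labels says that the libraries of a strain came from separate cultures, and p-values here measure the spread between these libraries only.

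DPY-27 is the SMC4-like subunit of condensin DC, the complex that binds both X chromosomes of hermaphrodites and lowers their expression. A mixed collection of C. elegans embryos runs from newly fertilized eggs, which carry RNA loaded by the mother, to embryos that secrete cuticle, contract their muscles and form synapses. The level of a stage or tissue gene in such a pool follows both the makeup of the collection and the RNA per cell, and fewer cells of a type and less RNA per cell cannot be told apart in bulk samples.

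Reads counted on genes ranged from 7062182 to 9582838 in DPY-27::GFP libraries and from 17107945 to 23536013 in wild-type libraries. For each read on a gene, DPY-27::GFP libraries had 0.0346 to 0.0407 reads on no annotated feature, against 1.04 to 1.09 in wild-type libraries, and DPY-27(EQ)::GFP libraries had 0.0375 to 0.0826. All DPY-27::GFP library names began with SEA and all wild-type names with LAS, as did that of DPY-27(EQ)::GFP replicate 3, and the labels do not say what the prefixes stand for. An embryo stage index, the mean log2 level of 17 late embryo genes minus that of 31 maternal and oocyte genes, was 1.98, 3.01 and 1.36 in DPY-27::GFP replicates 1 to 3, against 1.22, 1.75 and 0.51 in wild type. The groups overlapped on this index, but its highest value was that of DPY-27::GFP replicate 2 and its lowest that of wild-type replicate 3. The list of late embryo genes shares members with the lists of neurons, body wall muscle, pharynx, intestine and collagens described below. A fit with this index is therefore no independent check of those lists.

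The gene encoded by the transgene was measured first. The dpy-27 gene (chromosome III, 3813534 to 3819661 on WS220) was at 802, 451 and 817 CPM, counts scaled to 1000000 effective reads on genes, in DPY-27::GFP replicates 1 to 3, against 465, 472 and 484 CPM in wild type. The counts do not separate the transgene from the endogenous gene. Replicates 1 and 3 were above every wild-type library and replicate 2 was below all of them, and the log2 fold change of 0.54 ± 0.24 (SE) did not pass the edgeR quasi-likelihood test (adjusted p = 0.159). Without replicate 2 it was 0.80 with an adjusted p of 0.0259. The endogenous hsp-16.41, a small heat shock protein gene whose promoter drives the transgene, was at 50.7, 69.4 and 84.9 CPM in DPY-27::GFP, against 84.9, 89.1 and 158 CPM in wild type, which was no call either (adjusted p = 0.147), but was one with the replicate number as a block (adjusted p = 0.00543).

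Across 12643 genes tested, 432 were called higher in DPY-27::GFP embryos (3.42% of genes tested) and 942 were called lower (7.45%) at an adjusted p under 0.05. The 3 libraries of one strain did not overlap those of the other for 411 of the genes called higher and for 940 of those called lower. With the replicate number as a block the counts were 806 higher and 1590 lower, and on log2 TPM with a pseudocount of 1, tested with limma, they were 1363 higher and 458 lower. On autosomes 356 genes were called higher and 846 lower of 10696 tested, against 74 higher and 94 lower of 1939 on the X chromosome. The calls rested on few libraries: leaving out 1 library at a time left between 23 (replicate 3 of wild type dropped) and 1500 (replicate 3 of DPY-27::GFP dropped) genes called higher and between 276 and 1669 called lower in the same 2 fits. The counts were 67 higher and 287 lower when replicate 1 of DPY-27::GFP was dropped, 50 and 345 for replicate 1 of wild type, and 118 and 523 for replicate 2 of wild type. In all 6 of these fits, 23 of the genes called higher and 245 of those called lower kept their call. Of 72 called genes that the rule for named genes gave or that were singled out after their values were seen, 19 did so. Those lower were zig-7, unc-119, coa-3, lsm-3, lsm-6, lsm-8, mrpl-36, tin-13, sygl-1, erh-2, atp-4, hil-3, T09B4.6, K12C11.1 and ZC190.5, and those higher were cpr-1, clec-12, catp-3 and ifc-1. Each of the others lost its call when at least 1 of the 6 libraries was dropped. No prefix of library names held both strains, so no value within a prefix could be had. With the prefix as a covariate, which only DPY-27(EQ)::GFP replicate 3 lets the fit separate from strain, 1 gene was called higher and 38 lower, and no member of the 18 lists described at length was called. Strain, prefix and the reads on no feature cannot be told apart within the 6 libraries.

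The autosomal genes with the largest decreases, among those with a gene symbol, no exon overlap on the opposite strand and an average of at least 10 CPM over the 9 libraries, were of different kinds. The zig-7 gene, which encodes a secreted immunoglobulin-domain protein, was at 4.21, 4.92 and 3.62 CPM in DPY-27::GFP embryos, against 606, 708 and 688 CPM in wild-type embryos. It was 155-fold lower (log2 fold change -7.28 ± 0.18, adjusted p = 3.79e-10) and was at 4.74, 3.56 and 3.89 CPM in the DPY-27(EQ)::GFP libraries. The unc-119 gene (chromosome III, 10902548 to 10908831 on WS220), needed in neurons for movement, was at 9.26, 12.4 and 8.82 CPM in DPY-27::GFP, against 88.9, 91.5 and 96.4 CPM in wild type. This 9.03-fold decrease (log2 fold change -3.18 ± 0.16, adjusted p = 2.26e-07) was seen at like levels in DPY-27(EQ)::GFP, at 10.0, 11.4 and 10.3 CPM. A working copy of unc-119 is a marker with which many transgene insertions in this worm are selected, and the unc-119 genotype of these strains is not given in the sources used here. No other gene overlaps the deposited span of unc-119 or zig-7 on the opposite strand. In the annotation used for exon overlap, a gene on the opposite strand lies within 500 bases of zig-7, and none lies so near unc-119. Of the matched genes tested, 57.5% had such a neighbour.

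The coa-3 gene, for an assembly factor of cytochrome c oxidase, was at 8.05, 12.5 and 14.8 CPM in DPY-27::GFP, against 79.7, 78.7 and 105 CPM in wild type (log2 fold change -2.90 ± 0.23, adjusted p = 1.03e-05). On WS220 its deposited span shares 793 bases with vab-1 on the other strand, which averaged 409 CPM in DPY-27::GFP and 382 CPM in wild type. In the deposited TPM, coa-3 averaged 41.8 in DPY-27::GFP and 61.7 in wild type, a smaller difference than in the counts, and it was not called with limma on log2 TPM (adjusted p = 0.0945 with a pseudocount of 1). Smaller decreases were those of lsm-3 (-2.13), a subunit of the ring that binds the ends of U6 RNA and of decaying mRNAs, of mrpl-36 (-1.82), a protein of the mitochondrial ribosome, and of tin-13 (-1.71), a chaperone of mitochondrial protein import. The set ended with sygl-1 (-1.70), which keeps germline stem cells, and erh-2 (-1.56), a homolog of enhancer of rudimentary. The 8 genes of this set stayed called lower in each fit without 1 library. Although their exons do not overlap, the deposited spans of lsm-3 and erh-2 share 444 and 65 bases with a gene on the other strand.

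**Figure D1:**
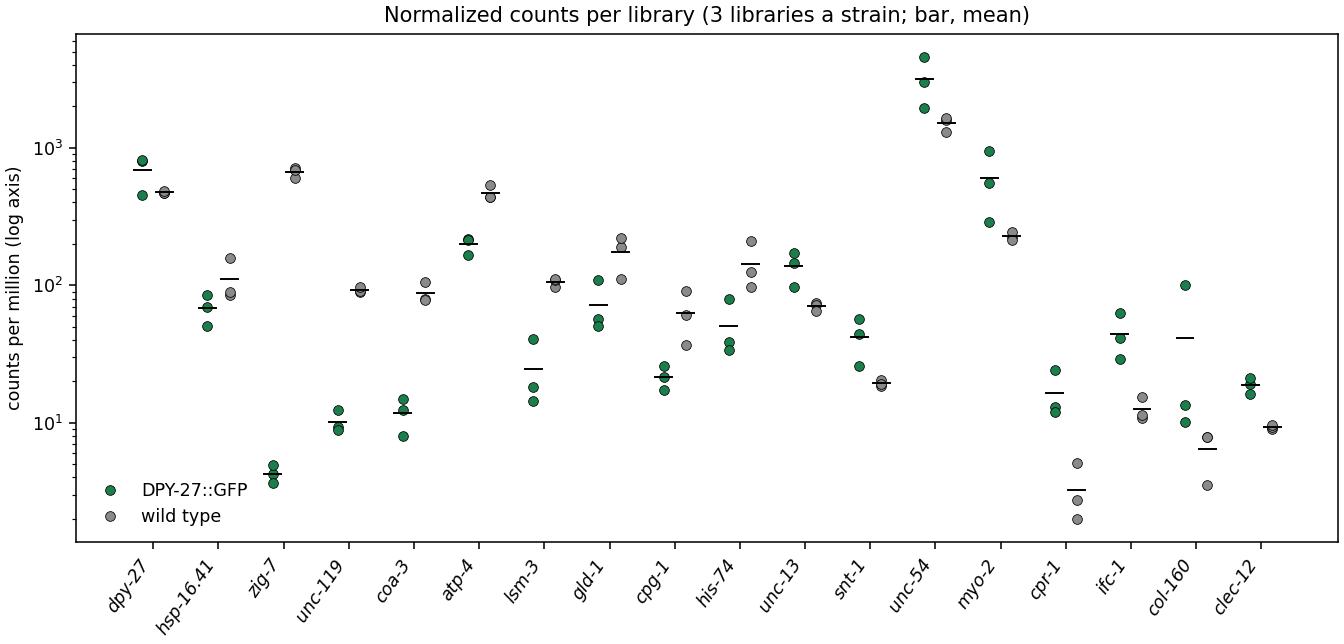
CPM in each library for 18 named genes on a log axis, with DPY-27::GFP (green) left of wild type (grey), 3 libraries a strain, and a bar at the mean. The strains are far apart for zig-7, unc-119 and coa-3, whereas those of dpy-27 overlap, those of hsp-16.41 meet at 84.9 CPM and, for myo-2 and col-160, DPY-27::GFP replicate 2 (950.0 and 101 CPM) stands above the other libraries.

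In 57 of the genes called lower, no DPY-27::GFP library had more than 3 counts, and 16 of them had none. These genes averaged 1.20 to 405 CPM in wild type, with a median of 4.36 CPM, and 45 of them also had at most 3 counts in every DPY-27(EQ)::GFP library. Of the 54 with a position and strand, 38 had a deposited span that overlaps a gene on the opposite strand, against 2622 of all 12449 genes tested with both (21.1%). T09B4.6, ZC190.5 and K12C11.1 were singled out after their values were seen, and K12C11.1 is not among the 57. T09B4.6 was at 0, 0 and 0.145 CPM in DPY-27::GFP (1 count in all) and at 399.96, 394 and 422 CPM in wild type (24738 counts), and shares 583 bases with T09B4.5, at 1306 to 1496 CPM in DPY-27::GFP and 1938 to 2038 CPM in wild type. ZC190.5 had no count in DPY-27::GFP, against 17.6, 19.1 and 22.4 CPM in wild type, at least 54.01-fold lower if each DPY-27::GFP library had held 3 counts, and shares 300 bases with ZC190.4. K12C11.1 was at 99.8, 108 and 115 CPM in DPY-27::GFP and 662, 629 and 743 CPM in wild type (log2 fold change -2.66 ± 0.13), and shares 519 bases with smo-1, which encodes SUMO. Its deposited TPM averaged 80.4 in DPY-27::GFP and 103.6 in wild type and gave no call (limma, adjusted p = 0.101 with a pseudocount of 1).

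Decreases went with expression on the opposite strand. Reads from a gene and from its partner on the other strand can be told apart only where both the library and the counting keep strand, so genes were split by whether their exons overlap those of a gene on the opposite strand. Of 3386 tested genes with such an overlap, 3.90% were called higher and 9.21% lower, and of 9063 with none, 294 were called higher (3.24%) and 626 lower (6.91%). Where the partner's mean level was at most 0.2 of the gene's own, 4.73% were called lower, and where it was more than 20 times the gene's own, 20.4% were. These means are over all 9 libraries, so a gene with low values in DPY-27::GFP embryos moves towards a higher class. The classes are thus not independent of the calls, and the higher ones also tend to hold weakly expressed genes. The share called higher ran the other way, at 3.15% and 1.81% in these classes. The part of strand in the difference between the strains was not tested. Most of the lists described at length below are given for all tested members and for those with no such overlap, and the others for all tested members only.

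**Figure D2:**
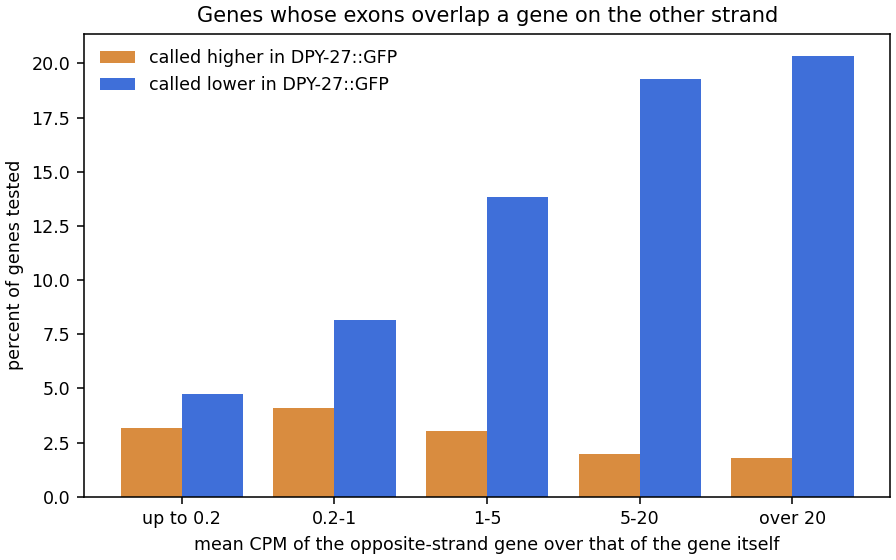
Percent of genes called higher (orange) or lower (blue) in DPY-27::GFP among genes whose exons overlap a gene on the opposite strand, in 5 classes of the partner's mean CPM over the 9 libraries divided by the gene's own. The share called lower is 4.73% in the lowest class and 20.4% in the highest, and the share called higher stays between 1.81% and 4.09%.

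Calls also ran with exonic length. Among genes with no opposite-strand overlap, 27.5% of those up to 400 bases long were called lower and none was called higher, whereas 0.21% of those over 4000 bases were called lower and 9.01% higher. Their median log2 fold change was -0.67 in the shortest class and 0.23 in the longest. The genes called higher had a median exonic length of 2204.5 bases and those called lower of 855 bases, against 1457 bases over all tested. Over all tested genes of the shortest class, the median level relative to the mean of the 6 libraries was -0.66, -0.21 and -0.15 on the log2 scale in DPY-27::GFP replicates 1 to 3, against 0.26, 0.36 and 0.39 in wild type, and -0.17, -0.18 and -0.34 in DPY-27(EQ)::GFP. The groups did not overlap, and replicate 1 was the lowest. A fit with the trend on length removed in each library, added after these values were seen, called 315 genes higher and 505 lower.

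**Figure D3:**
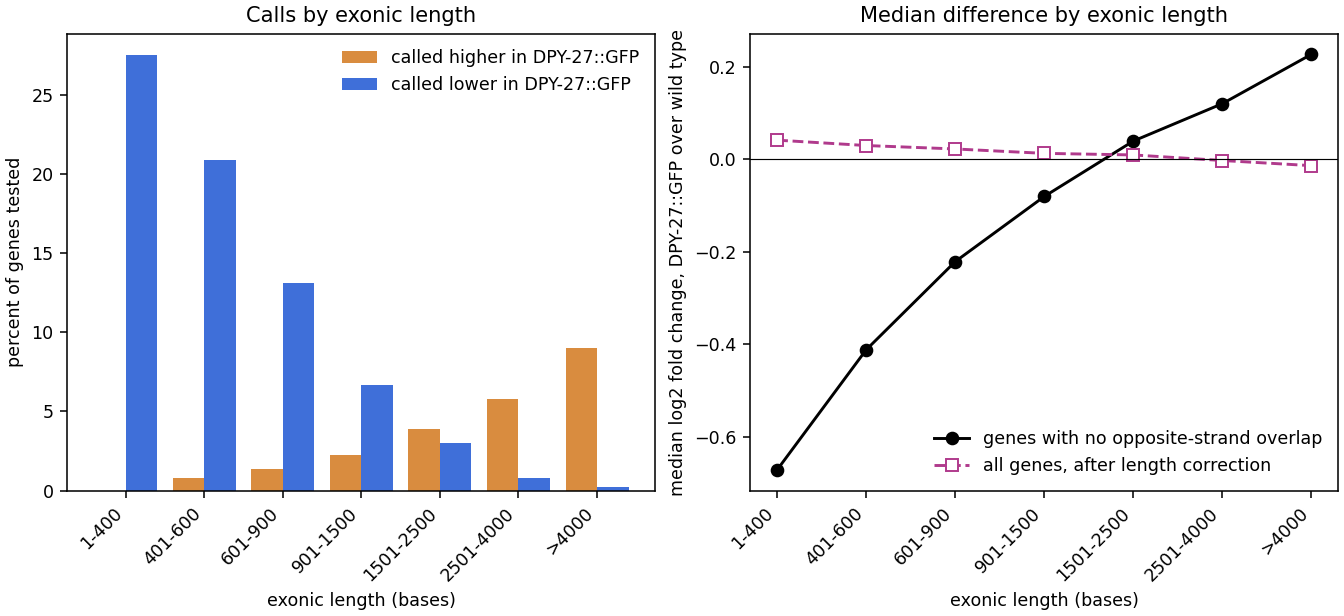
Left, percent of tested genes with no opposite-strand overlap called higher (orange) or lower (blue) in DPY-27::GFP, in 7 classes of exonic length. Right, median log2 fold change of DPY-27::GFP over wild type in the same classes, for those genes (circles) and for all tested genes after the length correction (squares): the circles run from -0.67 to 0.23 and the squares stay between -0.01 and 0.04.

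Of 56 gene lists for families, tissues and stages, 18 stood apart from the other genes by the share of members called or by their median. The shares to read their counts against are 3.42% higher and 7.45% lower over all tested genes, and 3.24% and 6.91% over those with no opposite-strand overlap. For short genes with no such overlap the share called lower was 27.5% up to 400 bases and 20.9% from 401 to 600 bases. It was 21.7% for core histones, 28.6% for insulin-like peptides and 63.6% for Sm and LSm genes with no such overlap. The median exonic lengths of these 3 lists were 384, 538.5 and 479 bases. Several maternal and oocyte RNAs were lower in DPY-27::GFP embryos. Of 31 members, all tested, 9 were called lower and none higher, with a median log2 fold change of -0.88, and of the 20 with no opposite-strand overlap 7 were called lower with a median of -0.90, against -0.02 over all such genes. Their summed level was 2026, 1434 and 3063 CPM in DPY-27::GFP, against 3326, 2416 and 4194 CPM in wild type, so the groups overlapped in replicate 3 of DPY-27::GFP and replicate 2 of wild type. The cpg-1 gene, for a chondroitin proteoglycan of the eggshell, was at 21.5, 17.2 and 26.03 CPM in DPY-27::GFP and at 61.0, 36.8 and 90.5 CPM in wild type (log2 fold change -1.55 ± 0.30, adjusted p = 0.00959). The translational repressor gld-1 was at 56.6, 50.7 and 109.8 CPM in DPY-27::GFP and at 190.7, 110.4 and 222 CPM in wild type (-1.27 ± 0.30, adjusted p = 0.0209). The Pumilio-family gene puf-3 (-1.19) and oma-2 (-1.25), whose zinc-finger protein acts in oocyte maturation, were called lower as well. The deposited span of puf-3 shares 1864 bases with afmd-2 on the other strand, which averaged 8.22 CPM in DPY-27::GFP and 10.9 CPM in wild type.

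The count of maternal genes called lower was 20 with the replicate block and 8 after the length correction. It was 0, 4 and 21 without DPY-27::GFP replicates 1 to 3, and 2, 10 and 0 without wild-type replicates 1 to 3, so no maternal gene kept its call in all 6. With the stage index as a covariate, which is built from this list and the late embryo list, it was 5 and the median was -0.19. Late embryo genes were mixed: of 17 tested, 2 were called higher and 1 lower, with a median of 0.16. The members called higher were the muscle myosins myo-2 and unc-54, and the one called lower was sqt-3, a cuticle collagen. None of the 3 stayed called in any fit without a wild-type library, and neither myosin passed after the length correction (adjusted p = 0.0588 for myo-2 and 0.0718 for unc-54).

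**Figure D4:**
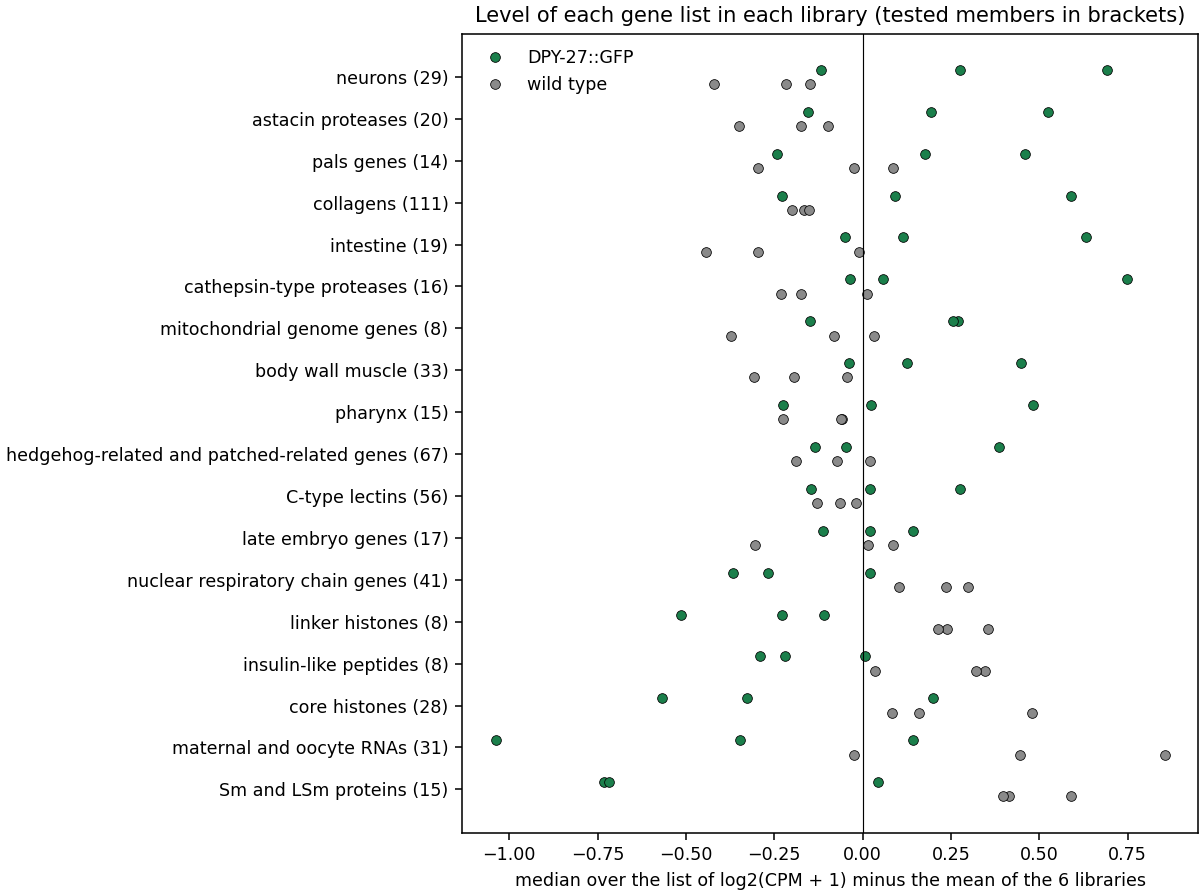
Level of each of the 18 gene lists in each library, as the median over tested members of log2(CPM + 1) minus the mean of the 6 libraries, with DPY-27::GFP (green) above wild type (grey). For maternal and oocyte RNAs the points are -0.35, -1.04 and 0.14 in DPY-27::GFP against 0.45, -0.03 and 0.86 in wild type, and for Sm and LSm proteins the groups do not overlap.

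Several genes of differentiated tissues were higher in DPY-27::GFP embryos. Of 29 neuronal genes tested, 8 were called higher and none lower, 28 had a positive log2 fold change, and the median was 0.58. Members with no opposite-strand overlap gave 6 of 19 called higher and a median of 0.61. The unc-13 gene, which primes synaptic vesicles for release, was at 144, 171 and 97.6 CPM in DPY-27::GFP, against 74.9, 72.3 and 65.4 CPM in wild type (log2 fold change 0.96 ± 0.19, adjusted p = 0.0113). The calcium sensor synaptotagmin, snt-1, was at 43.996, 57.2 and 25.7 CPM in DPY-27::GFP and at 20.4, 18.6 and 19.3 CPM in wild type (1.13 ± 0.23, adjusted p = 0.0127). The SNAP-25 gene ric-4 (0.79) and cat-2 (1.34), the tyrosine hydroxylase of dopamine neurons, were called too. In each of these genes replicate 2 of DPY-27::GFP was the highest library and replicate 3 the nearest to wild type. The count of neuronal genes called higher was 15 with the replicate block, 4 after the length correction and 1 with the stage index as a covariate. It was 0, 3 and 19 without DPY-27::GFP replicates 1 to 3, and 1, 2 and 0 without wild-type replicates 1 to 3.

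Of 33 genes of body wall muscle tested, 8 were called higher and none lower (median 0.27), 11 of the 33 being X-linked, and 5 of 23 were called among those with no opposite-strand overlap (median 0.26). The myosin heavy chain gene unc-54 was at 2989, 4604 and 1963 CPM in DPY-27::GFP, against 1586, 1635 and 1294 CPM in wild type (log2 fold change 1.08 ± 0.28, adjusted p = 0.0301). The X-linked troponin I gene unc-27 was at 241, 374 and 183 CPM in DPY-27::GFP and at 109, 132 and 116 CPM in wild type (1.16 ± 0.23, adjusted p = 0.0108). The giant sarcomere protein gene unc-89 (0.95) and the X-linked troponin T gene tnt-2 (1.31) were called higher, whereas act-1 to act-4, near-identical actin genes among which reads may be split, had log2 fold changes of -0.45 to -0.24 and no call. Muscle genes called higher numbered 12 with the replicate block, 4 after the length correction and 4 with the stage index as a covariate. They numbered 2, 3 and 14 without DPY-27::GFP replicates 1 to 3 and 1, 3 and 0 without wild-type replicates 1 to 3.

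In the pharynx, the feeding organ, 4 of 15 tested genes were called higher and none lower (median 0.21), and 3 of the 10 with no opposite-strand overlap (median 0.33). X-linked genes made up 2 of the 15, myo-2 among them. The myosin gene myo-1 was at 418, 694 and 209 CPM in DPY-27::GFP, against 160.4, 173 and 141 CPM in wild type (log2 fold change 1.48 ± 0.34, adjusted p = 0.0208). Its paralog myo-2 was at 555, 950.0 and 289 CPM in DPY-27::GFP and at 225, 245 and 212 CPM in wild type (1.40 ± 0.34, adjusted p = 0.0257), and the troponin T gene tnt-4 (1.17) was called higher too. The fourth gene called, the troponin I gene tni-4 (1.12), overlaps an opposite-strand gene, and like the other 3 it encodes a contractile protein. The organ's regulators pha-4 (-0.18), ceh-22 (0.09) and peb-1 (-0.47) were not called. The count of pharyngeal genes called higher was 3 after the length correction, 0 with the stage index as a covariate, 0, 3 and 6 without DPY-27::GFP replicates 1 to 3, and 0 without any one wild-type library.

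Of 19 intestinal genes tested, none of which overlaps an opposite-strand exon, 6 were called higher and none lower, with a median of 0.37. X-linked genes made up 6 of the 19, ifd-2 among them. The cathepsin B-like protease gene cpr-1 was at 12.98, 24.2 and 12.01 CPM in DPY-27::GFP, against 2.74, 5.05 and 1.99 CPM in wild type (log2 fold change 2.35 ± 0.43, adjusted p = 0.00627), and kept its call in each fit without 1 library. The P-glycoprotein gene pgp-1 was at 6.49, 14.9 and 6.80 CPM in DPY-27::GFP and at 3.51, 2.37 and 2.56 CPM in wild type (1.74 ± 0.35, adjusted p = 0.0118). The apical proton pump subunit vha-6 (0.87) and the intermediate filament gene ifd-2 (0.64) were called higher, while elt-2 (0.26), the main regulator of the intestine, and the metallothionein gene mtl-1 (-2.12) were not called. Intestinal genes called higher numbered 4 after the length correction and 1 with the stage index as a covariate, which also had 2 lower. They numbered 3, 2 and 8 without DPY-27::GFP replicates 1 to 3, and 2, 3 and 1 without wild-type replicates 1 to 3.

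Families of the cuticle and of secretion made up the next group. Collagens, which build the cuticle, had 13 of 111 tested members called higher and 6 lower, with a median of 0.45, and 10 higher and 3 lower of 85 with no opposite-strand overlap (median 0.57). Members called higher included col-180, at 73.8, 139 and 52.8 CPM in DPY-27::GFP against 34.6, 28.6 and 33.9 CPM in wild type (log2 fold change 1.45 ± 0.29, adjusted p = 0.0104). Called lower was dpy-3, a collagen of the cuticle furrows, at 219, 272 and 288 CPM in DPY-27::GFP against 438, 564 and 470.1 CPM in wild type (-0.92 ± 0.18, adjusted p = 0.00994). Both are X-linked, as were 18 of the 111. The low-level col-38 (-1.95) was called lower, and col-138 had 4 counts over the DPY-27::GFP libraries and 94 over wild type, a 9.71-fold lower level with a 95% counting interval of 3.67 to 36.4. The collagens called higher numbered 29 with the replicate block, 10 after the length correction, with 5 lower, and 0 with the stage index as a covariate. They numbered 3, 2 and 44 without DPY-27::GFP replicates 1 to 3 and 0, 1 and 0 without wild-type replicates 1 to 3, and those called lower numbered 2 to 7 in these fits. The only collagens that kept their call in all 6 of these fits were col-47 and col-123, both called lower and both overlapping an opposite-strand gene.

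Hedgehog-related and patched-related genes, large nematode families expressed mainly in epithelia, had 6 of 67 tested members called higher and 1 lower (median 0.18), or 6 and 0 of 50 with no opposite-strand overlap (median 0.25). The grl-21 gene was at 6.01, 25.1 and 7.81 CPM in DPY-27::GFP and at 3.12, 3.65 and 1.56 CPM in wild type (log2 fold change 2.24 ± 0.52, adjusted p = 0.0201). Also called were grl-13 (1.76), wrt-8 (1.16) and the patched-related ptr-23 (0.69). The count called higher was 11 with the replicate block, 3 after the length correction, 1 with the stage index as a covariate, 1, 3 and 18 without DPY-27::GFP replicates 1 to 3, and 2, 3 and 0 without wild-type replicates 1 to 3.

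Astacin metalloproteases, which process extracellular proteins, had 3 of 20 tested members called higher and 1 lower, with a median of 0.56. X-linked genes made up 6 of the 20, nas-38 and hch-1 among them. The nas-14 gene was at 22.7, 22.9 and 19.8 CPM in DPY-27::GFP and at 13.7, 14.2 and 12.59 CPM in wild type (log2 fold change 0.70 ± 0.17, adjusted p = 0.0263), and nas-30 (1.31) and nas-38 (1.30) were called too. The member called lower was hch-1, whose protease helps the larva to leave the eggshell, at 296, 334 and 451 CPM in DPY-27::GFP against 543, 610.1 and 511 CPM in wild type (-0.62 ± 0.16, adjusted p = 0.0323). No astacin was called with the stage index as a covariate, nor when replicate 1 of DPY-27::GFP or replicate 1 or 3 of wild type was dropped. The count called higher was 2 and 9 when replicates 2 and 3 of DPY-27::GFP were dropped and 1 for replicate 2 of wild type.

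C-type lectins, secreted or membrane proteins with a carbohydrate-binding fold, had 5 of 56 tested members called higher and 4 lower. Of the 50 with no opposite-strand overlap, 5 were called higher and 1 lower (median 0.29). One member with no such overlap, clec-12, was at 18.99, 16.1 and 20.97 CPM in DPY-27::GFP and 9.07, 9.31 and 9.61 CPM in wild type (log2 fold change 0.998 ± 0.17, adjusted p = 0.00405), and was called in each fit without 1 library, as were clec-51 (-3.43) and clec-266 (-0.89), which overlap an opposite-strand gene. The others named by rule were clec-41 (1.76), clec-67 (1.36) and clec-196 (-0.73), of which clec-196, 540 bases long, was not called after the length correction (adjusted p = 0.165). After the length correction 4 lectins were called higher and 2 lower. Lectins called higher numbered 2 with the stage index as a covariate, and 2, 2 and 12 without DPY-27::GFP replicates 1 to 3 and 2, 2 and 1 without wild-type replicates 1 to 3.

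Cathepsin-type proteases had 3 of 16 tested members called higher and none lower (median 0.36). Beside cpr-1 these were cpr-4, which overlaps an opposite-strand gene, and cpr-9, at 50.8, 90.9 and 41.2 CPM in DPY-27::GFP against 23.2, 31.2 and 27.97 CPM in wild type (log2 fold change 1.16 ± 0.26, adjusted p = 0.0181). With the stage index as a covariate 1 cathepsin was called higher, as when replicate 1 or 3 of wild type was dropped, and 6 were when replicate 3 of DPY-27::GFP was dropped. The pals genes, many of which respond to microsporidia and viruses, had 1 of 14 tested members called lower, pals-20, which overlaps an opposite-strand gene, and none higher, and the median of the other 13 was 0.56. Their summed level was 61.1 to 85.2 CPM in DPY-27::GFP and 49.7 to 69.5 CPM in wild type, so the groups overlapped.

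The autosomal genes with the largest increases, chosen under the same limits as the decreases, were of mixed kinds. The highest was catp-3, for a P-type cation pump, at 27.6, 19.9 and 5.64 CPM in DPY-27::GFP against 2.78, 3.59 and 1.75 CPM in wild type (log2 fold change 2.73 ± 0.47, adjusted p = 0.00449). The intermediate filament gene ifc-1 was at 41.4, 63.2 and 28.9 CPM in DPY-27::GFP and at 10.8, 15.3 and 11.4 CPM in wild type (1.84 ± 0.26, adjusted p = 0.00129). Both kept their call in each fit without 1 library, as did cpr-1, the only other increase named here besides clec-12 that did so. In contrast, col-160 was at 13.5, 101 and 10.1 CPM in DPY-27::GFP, against 7.91, 7.91 and 3.50 CPM in wild type (2.71 ± 0.76, adjusted p = 0.0427), and without replicate 2 its log2 fold change was 0.91 (adjusted p = 0.222). The tyrosinase gene tyr-2 (1.98) and the collagens col-91 (1.77) and col-12 (1.65) also had their highest level in replicate 2, and without it col-91 and col-12 were not called (adjusted p = 0.0881 and 0.122). The set was completed by clec-41.

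**Figure D5:**
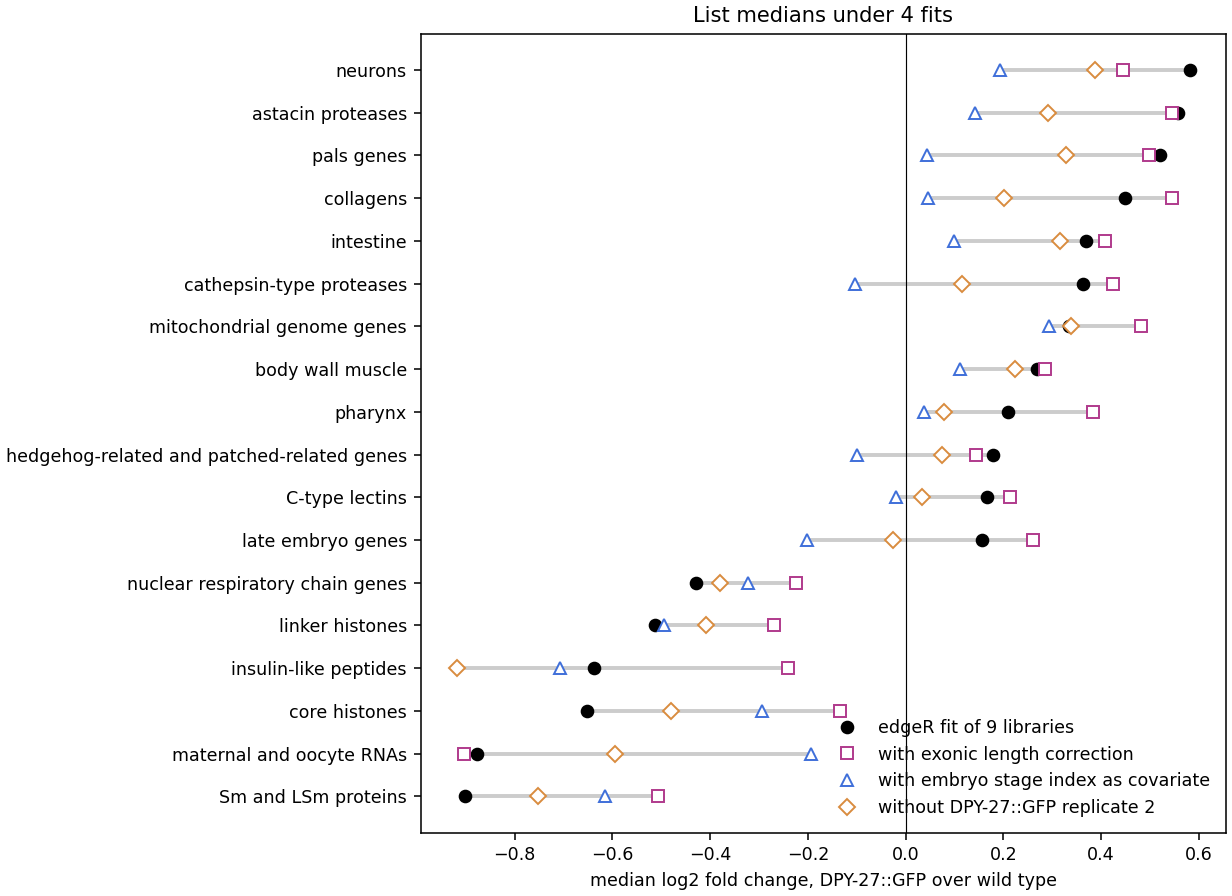
Median log2 fold change of DPY-27::GFP over wild type for the 18 lists in the edgeR fit of 9 libraries (filled circles), after the length correction (squares), with the embryo stage index as a covariate (triangles) and without DPY-27::GFP replicate 2 (diamonds). With the stage index the medians of the 5 tissue and cuticle lists of neurons, intestine, body wall muscle, pharynx and collagens move towards 0 (neurons from 0.58 to 0.19). These 5 lists share members with the late embryo list behind the index, so this shift is no independent check of them. The medians of 4 lists change sign with the index (late embryo genes, hedgehog-related genes, C-type lectins and cathepsins). With the length correction, core histones, insulin-like peptides and Sm and LSm proteins move towards 0 (core histones from -0.65 to -0.13).

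The lists called lower depended on the deposited measure. On log2 TPM with a pseudocount of 1, tested with limma, the median of all genes lay at 0.24, and none of the 31 maternal and oocyte RNAs was called lower, with a median of -0.35. No core histone, linker histone or insulin-like gene was called lower there either, while 4 of the 41 nuclear respiratory chain genes and 9 of the 15 Sm and LSm genes were. Counts called higher were 8 of 19 for intestine, 16 of 33 for body wall muscle, 4 of 15 for the pharynx, 11 of 29 for neurons and 35 of 111 for collagens. These counts are to be read against 1363 genes called higher and 458 called lower of all 12643 tested in this fit.

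Sm and LSm proteins, the rings around spliceosomal RNAs and decaying mRNAs, were mostly lower. All 15 were tested, all had a negative log2 fold change, and 11 were called lower (median -0.90). Of the 11 with no opposite-strand overlap 7 were called. Their summed level was 929, 847 and 1487 CPM in DPY-27::GFP, against 1847, 1759 and 2004 CPM in wild type, with no overlap. The lsm-3 gene was at 14.4, 18.1 and 40.6 CPM in DPY-27::GFP and at 97.1, 109.9 and 111 CPM in wild type (adjusted p = 0.00179). On WS220 the deposited span of lsm-3 shares 444 bases with Y62E10A.13 on the other strand. That gene averaged 118 CPM in DPY-27::GFP and 107 CPM in wild type. The lsm-6 gene was at 16.9, 21.2 and 35.3 CPM in DPY-27::GFP and at 69.6, 61.4 and 70.4 CPM in wild type (log2 fold change -1.46 ± 0.23, adjusted p = 0.00276), and snr-7, the SmG protein (-1.40), and lsm-8 (-0.90) were called too. The members are short, with a median exonic length of 479 bases, and 4 were called lower after the length correction, where the median was -0.51. Without DPY-27::GFP replicates 1 to 3 the count was 3, 7 and 14, without wild-type replicates 1 to 3 it was 6, 7 and 3, and with the stage index as a covariate it was 7.

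Of the histone genes, several were lower, though near-identical copies among which reads may be split make their counts uncertain, and their mRNAs mostly lack the poly(A) tail by which the RNA was purified. Of 28 core histone genes tested, 6 were called lower and none higher (median -0.65), a count that takes in the linker histone his-24. The H3 variant gene his-74 was at 38.9, 33.6 and 79.4 CPM in DPY-27::GFP and at 124, 96.4 and 209 CPM in wild type (log2 fold change -1.51 ± 0.33, adjusted p = 0.0149), and the abundant H3.3 gene his-72 was at 1084, 938 and 1198 CPM in DPY-27::GFP and at 1387, 1546 and 1749 CPM in wild type (-0.54 ± 0.15, adjusted p = 0.0417). The H4 genes his-38 (-2.06) and his-64 (-2.40) were at 2.60 CPM or less in every library but wild-type replicates 1 and 3 for his-64. Of 8 linker histones, 3 were called lower (median -0.51), among them the X-linked hil-3, at 545, 461 and 542 CPM in DPY-27::GFP and at 825, 946 and 756 CPM in wild type (-0.71 ± 0.13, adjusted p = 0.00844), and hil-4 (-1.10). After the length correction no histone of either list was called lower and 1 core histone was called higher. Core histones called lower numbered 13 with the replicate block, 1 with the stage index as a covariate, 0, 1 and 14 without DPY-27::GFP replicates 1 to 3, and 1, 2 and 0 without wild-type replicates 1 to 3.

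Of 41 tested nuclear genes of the mitochondrial respiratory chain, 38 had a negative log2 fold change, 11 were called lower and none higher (median -0.43), and 9 of 32 with no opposite-strand overlap were called (median -0.41). The ATP synthase subunit atp-4 was at 165, 218 and 212 CPM in DPY-27::GFP and at 441, 438 and 532 CPM in wild type (log2 fold change -1.25 ± 0.15, adjusted p = 0.000393), and stayed called in each fit without 1 library and after the length correction (-0.82, adjusted p = 0.006). The succinate dehydrogenase subunit sdhd-1 (-0.71) and the cytochrome c oxidase genes cox-4 (-0.73) and cox-14 (-0.75) were called lower but not after that correction, in which 3 of the 41 were. The count was 20 with the replicate block, 7 with the stage index as a covariate, 3, 7 and 18 without DPY-27::GFP replicates 1 to 3, and 4, 5 and 1 without wild-type replicates 1 to 3. The deposited span of sdhd-1 shares 1495 bases with ilkp-1 on the other strand, which averaged 5.57 CPM in DPY-27::GFP and 6.45 CPM in wild type.

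Of 8 tested genes of the mitochondrial genome, 2 were called higher and 2 lower. COX3, for a subunit of cytochrome c oxidase, was at 948, 1129 and 587 CPM in DPY-27::GFP and at 447, 530.2 and 479 CPM in wild type (log2 fold change 0.87 ± 0.24, adjusted p = 0.0394), and MTCE.31 (0.98) was also higher. ND6, for a subunit of complex I, was at 1.20, 5.53 and 1.59 CPM in DPY-27::GFP and at 13.9, 11.7 and 12.64 CPM in wild type (-2.15 ± 0.45, adjusted p = 0.0130), and the scarce MTCE.16 (-1.96) was lower. After the length correction 3 were called higher and 1 lower. None of the 8 was called when replicate 1 of either strain or replicate 3 of wild type was dropped. Insulin-like peptides, ligands of the DAF-2 receptor, had 2 of 8 tested members called lower (median -0.64). These were ins-2, at 12.7, 11.4 and 12.4 CPM in DPY-27::GFP against 19.2, 19.4 and 22.4 CPM in wild type (-0.74 ± 0.20, adjusted p = 0.0337), and ins-27 (-1.37). After the length correction neither was called (adjusted p = 0.296 and 0.363), nor was either when replicate 1 or 2 of DPY-27::GFP or any one wild-type library was dropped.

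The other 38 lists did not meet the limits for a description at length, and in 10 of them no tested member was called. Cytosolic ribosomal proteins turned with the processing: of 78 tested, 11 were called lower and none higher (median -0.25), but after the length correction 9 were called higher and 2 lower (median 0.15). Mitochondrial ribosomal proteins had 11 of 64 called lower and 1 higher, and 2 of each after the correction. Proteasome subunits had 6 of 33 called lower and 31 with a negative log2 fold change (median -0.35), and 3 were called lower after the correction. F-box genes had 9 of 193 called lower and 2 higher (median -0.20).

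Among stage and tissue lists not described at length, germ granule and germ cell genes had 2 of 20 called lower, with 19 negative log2 fold changes and a median of -0.41. Here pgl-1 was at 43.6, 25.2 and 67.4 CPM in DPY-27::GFP and 55.2, 46.8 and 82.7 CPM in wild type (adjusted p = 0.362, or 0.036 with the replicate block) and pgl-3 at 4.81, 5.83 and 11.14 CPM in DPY-27::GFP and 11.6, 8.64 and 16.5 CPM in wild type (adjusted p = 0.162, or 0.0239 with the replicate block). The first zygotic genes had 1 of 40 called in each direction, with end-1 (-0.74) and end-3 (-0.54) not called, though end-1 was with the replicate block (adjusted p = 0.0349). Epidermal genes had 3 of 17 called higher and 1 lower, or 1 and 0 of 13 with no opposite-strand overlap. The epidermal regulators elt-1 (0.06) and elt-3 (-0.14) were not called. Genes of sensory cilia had 1 of 32 called higher, with daf-19 (0.25) and che-2 (0.14) not called.

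Markers of tissues that embryos should lack were low in both strains. Of 61 sperm genes 2 were tested, nspd-7 (-1.25) and fer-1 (0.27), and neither was called. The 61 summed to 5.05 to 8.97 CPM in DPY-27::GFP and 8.10 to 20.4 CPM in wild type. Of 9 genes of adult yolk and cuticle, 5 were tested and none called, with 5 positive log2 fold changes and a median of 1.71. Of the 5 tested, 4 are X-linked, vit-1 and vit-2 among them. The 9 genes summed to 22.4, 39.4 and 16.8 CPM in DPY-27::GFP and 16.1, 4.50 and 3.98 CPM in wild type, with no overlap of the groups. The vit-2 gene was at 4.45, 10.4 and 4.05 CPM in DPY-27::GFP, against 2.61, 0.487 and 0.331 CPM in wild type (adjusted p = 0.0707, or 0.00208 with the replicate block), and vit-1 (0.77) was not called (adjusted p = 0.311).

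The list of the complex and that of the heat response held no gene called by this test. None of 18 tested condensin, cohesin and SMC genes and none of 8 partners in dosage compensation was called, with medians of 0.11 and 0.08. Of 6 tested heat-inducible chaperone genes none was called (median -0.41), and their summed level of 391, 378 and 705 CPM in DPY-27::GFP overlapped that of 442, 473 and 899 CPM in wild type. Of 57 other chaperone genes, 2 were called lower and none higher.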

How the data were processed

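Poly(A) RNA was sequenced from dUTP-marked stranded libraries, and the authors deposited raw counts per gene with HTSeq, named in the submitters' processing notes in version 0.6.1p1, and TPM values of the same libraries, whose computation is not given in the sources used here. The mRNA-seq methods describe alignment to WS220 for another strain, and which strand setting HTSeq was run with is not given in the sources used here. Reads assigned to no gene took 12.63% to 13.5% of the deposited counts in DPY-27::GFP libraries and 55.2% to 58.2% in wild-type libraries and were left out, and tables of the authors' own comparisons (fold changes and p-values) were not used.

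Counts of 9 libraries were fitted with edgeR 4.0.16 in R 4.3.3 (filterByExpr, TMM, quasi-likelihood test, DPY-27::GFP minus wild type), with Benjamini-Hochberg adjusted p under 0.05 as a call, and the same step was tested on simulated data. Depth ranged from 7062182 to 23536013 reads on genes in the 6 libraries compared, and intervals and the floor of 3 counts cover counting error only. Of 20389 genes, 19902 were matched to WBcel235, which gave exonic length and opposite-strand exon overlap, and coordinates are those of WS220 in the deposited table. Deviations of same-numbered libraries of the strains had correlations of 0.10, 0.42 and 0.45, against -0.46 to 0.08 for libraries of different numbers. The value of replicate 1 was thus hardly above that of unmatched libraries. In both strains the embryo stage index was highest in replicate 2 and lowest in replicate 3. Same-numbered libraries were treated as pairs in an alternative with the replicate number as a block. The pairing comes from the replicate numbers in the labels and this check.

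Members and lists were chosen with earlier results of these data known. A list was described at length where 5 or more members with no opposite-strand overlap were tested and the share called in one direction was at least 3 times that of all such genes, or its median lay 0.5 or more from theirs. Genes named were dpy-27 and hsp-16.41, up to 4 called members of each such list with no overlap of libraries or strands and the smallest adjusted p, the first 2 tested members of other stage and tissue lists, and, in each direction, the 8 called autosomal genes of largest change among those with a gene symbol, no opposite-strand exon overlap, libraries that did not overlap and an average of at least 10 CPM over the 9 libraries. Other genes were named after their values were seen. Alternatives were DESeq2 1.42.0, limma 3.58.1 on log2 TPM, other size factors, filters, covariates and sets of libraries, and, chosen after seeing the data, a correction for exonic length.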

Additional observations from a re-analysis of the deposited data

How the results depend on the processing

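Against 432 genes called higher and 942 lower (294 and 626 with no opposite-strand overlap), the replicate block gave 806 and 1590 (526 and 1114). DESeq2 gave 934 higher (619 with no overlap), and limma on log2 TPM gave 1184 and 394 (815 and 247) with a pseudocount of 0.1 and 1363 and 458 (935 and 299) with 1, where the median of all genes lay at 0.27 and 0.24. Only the 6 libraries compared gave 120 and 551 (89 and 330), the stage index 258 higher (195), the library name prefix 1 and 38 (0 and 13), and the length correction, chosen after seeing the data, 505 lower (280). Leaving overlapped genes out of the fit gave 268 and 550, a log2 fold change of at least 1 gave 185 and 417 (122 and 241), and leaving out genes within 500 bases of an opposite-strand gene gave 149 and 348. Without 1 library the counts ran from 23 to 1500 higher and from 276 to 1669 lower (17 to 1010 and 127 to 1191).

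Among genes named and not called, the log2 fold change turned to 0.24 for pgl-1, 0.13 for end-3, -0.19 for vit-1 and -0.075 for che-2 with the stage index, to 0.062 for end-3 with the prefix, to 0.038 and 0.039 for pgl-1 with the pseudocounts of 0.1 and 1, and to -0.011 for elt-1 with the length correction. Without 1 library it ran from -0.026 to 0.24 for elt-1 and from -0.0040 to 0.32 for che-2. The cause was not tested, beyond the fewer libraries or genes that some of these fits hold. The replicate block ended no call of a named gene and added 5. Of the 18 list medians, 4 changed sign with the stage index and 1, late embryo genes, without DPY-27::GFP replicate 2. The DPY-27::GFP libraries were the shallower ones, and counting error limits what can be said of genes with few counts in them.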
